A study of Mus musculus with 19 samples.

Results

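Microglia cultured from APP mice and given lipopolysaccharide (LPS) were compared with APP microglia given vehicle, across all genes in the count tables. The libraries were chosen by title: 5 APP LPS and 5 APP vehicle libraries, which are 10 of the 19 libraries of the study. Libraries with the same replicate number were treated as pairs, which gave 5 pairs.

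The APP LPS cells came from C57BL/6 mice of the hAPPJ20 line. They received LPS, a component of the bacterial outer membrane, at 100 ng/mL for 6 h and then recovered for 16 h in fresh medium. The APP vehicle cells came from the same line and received medium alone on the same schedule. Both groups carry the transgene, a human amyloid precursor protein with the Swedish and Indiana mutations under a PDGF promoter, so their difference does not bear on the genotype. The mice were 10 to 11 months old, and before treatment the cortical cells were kept in culture for 4 weeks in medium with macrophage colony-stimulating factor (5 ng/mL) and 10% serum. The other 9 libraries are WT microglia, 5 with LPS and 4 with vehicle, and they were used to test whether the response differed by genotype. The labels do not say whether replicates came from separate animals or cultures, so the p-values reflect only how much these libraries vary, which may be technical. The title of the study concerns inflammation and the phagocytosis of synapses by adult APP microglia.

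Microglia are the resident macrophages of the brain. LPS is bound by CD14 and by the complex of Toll-like receptor 4 with MD-2 (the product of Ly96), which signals through MyD88 to NF-kB and MAP kinases and through TRIF to interferon genes. NF-kB targets include cytokines, chemokines and the inhibitors that end the signal, and macrophages activated in this way are known to lower many genes of their resting state.

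Library totals were 13065257 to 23165305 counts in APP LPS and 18990298 to 25502823 counts in APP vehicle libraries, and 11161 to 14333 genes of the 16941 in the tables had at least 1 count in an APP library. Levels below are CPM, counts scaled to a common library total. The defining markers of microglia and macrophages were detected in both groups, with summed levels of 1719 to 9712 CPM in the APP LPS libraries and 2528 to 10488 CPM in the APP vehicle libraries, but the microglial genes P2ry12 and Tmem119 averaged 0.516 and 6.59 CPM in APP LPS libraries, and 6.94 and 5.49 CPM in APP vehicle libraries. Both libraries of pair 5 stood apart, with marker sums of 1719 CPM (LPS) and 2528 CPM (vehicle), while the other libraries had at least 5751 CPM (LPS) and 6284 CPM (vehicle). Markers of fibroblasts and pericytes summed to 30605 to 80935 CPM in the APP LPS libraries and 26994 to 55551 CPM in the APP vehicle libraries, most of it from Lrrc17, which averaged 42944 CPM in APP LPS and 41401 CPM in APP vehicle libraries. Mouse App stood at 1951, 1526, 982, 1381 and 1821 CPM in APP LPS libraries 1 to 5, against 1752, 1674, 1242, 1488 and 2091 CPM in APP vehicle libraries 1 to 5, and did not pass the test (log2 change -0.13 ± 0.10, adjusted p = 0.979). The App row names the mouse gene and is no check of the human transgene.

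In the paired test 63 of 14113 genes were called at an adjusted p under 0.05, which is 0.446% of the genes tested. LPS raised 33 of them (0.234%) and lowered 30 (0.213%). In simulated data this test called 28 unchanged genes, more than its threshold allows. Beside them it recovered 23.9% of 67 genes changed 2-fold, 44.8% of 67 changed 4-fold and 59.1% of 66 changed 8-fold. The adjusted p of the 63 calls may therefore be too low, and more of them may be false than the threshold implies. The genes that rose were led by the interleukin 1 genes, neutrophil-attracting chemokines, Il6 and the itaconate enzyme Acod1. Among those that fell the largest changes were those of mt-Nd4l and Ugt1a6a, whose counts are uncertain, followed by Cd5l, Rgs2, Tmem37, Trem2 and Igf1, with Mrc1, Apoe, Lpl and the lysosomal genes Ctsd and Lipa among the smaller changes. All 33 genes that rose were higher in 5 of 5 pairs, and 29 of the 30 that fell were lower in 5 of 5 pairs, the exception being Ugt1a6a, which was at 0 in both libraries of pairs 2 and 3. The test that chose these genes used the same pairs, so this agreement describes them and is no separate support. The share of all genes with such agreement was not counted. The median log2 change over all genes was -0.11, and 41.4% of all genes had a change above 0. The list medians and counts above 0 given below are to be read beside these 2 values. Levels in bulk cultures cannot tell apart fewer cells of a type and less RNA per cell.

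The pairing carried these calls. With no replicate block, edgeR called 0 genes, with 548 at an unadjusted p under 0.05, while the paired fit had 929 (6.58% of genes). The paired DESeq2 fit called 229 genes that rose and 384 that fell, and paired limma voom called 53 and 51. Without pair 1 the paired edgeR fit called 10 that rose and 11 that fell, without pair 2 it called 2 and 5, without pair 3 it called 5 and 7, without pair 4 it called 24 and 17, and without pair 5 it called 100 and 41. Only Igf1, Mrc1, Slc7a2, S100a8, Ccdc152 and mt-Nd4l were called in each of these 5 fits. None of the 63 genes changed direction in any of 15 alternative fits, and below those named are given with their log2 change (LPS over vehicle, ± SE), their adjusted p and the number of these fits that called them.

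**Figure D1:**
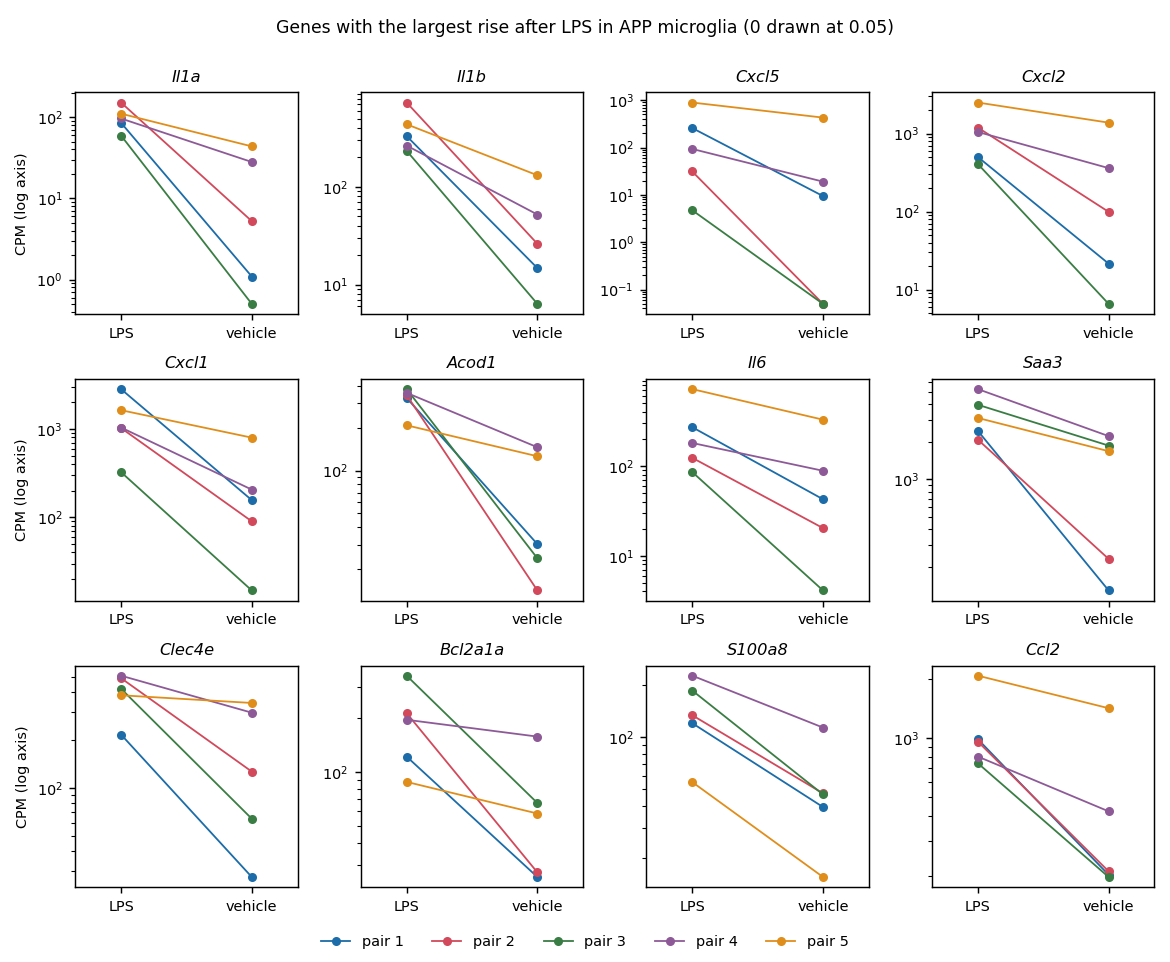
Level of the 12 genes with the largest called rise, in CPM on a log axis, in APP LPS libraries (left of each panel) and APP vehicle libraries (right), with a line for each pair. All lines slope down to vehicle, and the vehicle libraries of pairs 4 and 5 are the highest for most of these genes.

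Among 35 tested cytokines and chemokines, 9 rose and 0 fell, and 29 had a log2 change above 0, with a list median of 1.58. Il1b, which encodes the secreted cytokine interleukin 1 beta, stood at 331, 729, 234, 265 and 437 CPM in APP LPS libraries 1 to 5, against 14.8, 26.2, 6.36, 52.2 and 131 CPM in APP vehicle libraries 1 to 5. Every LPS library lay above every vehicle library (log2 change 3.73 ± 0.46, adjusted p = 0.00259, called in 12 of 15). Il1a, for interleukin 1 alpha, stood at 85.1, 151, 59.3, 96.1 and 110.2 CPM in APP LPS libraries 1 to 5, against 1.09, 5.23, 0.501, 27.997 and 43.6 CPM in APP vehicle libraries 1 to 5. Its groups did not overlap either, although the vehicle libraries of pairs 4 and 5 lay far above the other 3 (log2 change 4.14 ± 0.77, adjusted p = 0.0353, called in 7 of 15). Groups that did not overlap were found for 6 of the 33 genes that rose, against 0.255% of all genes with LPS higher.

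Cxcl1 and Cxcl2 encode chemokines that attract neutrophils through CXCR2. Cxcl1 stood at 2821, 1024, 325, 1037 and 1629.7 CPM in APP LPS libraries 1 to 5, against 156, 90.05, 14.9, 206 and 797 CPM in APP vehicle libraries 1 to 5. Vehicle library 5 alone lay above an LPS library, that of pair 3 (log2 change 3.13 ± 0.40, adjusted p = 0.00344, called in 12 of 15). Cxcl2 stood at 501, 1195, 407, 1049.9 and 2501 CPM in APP LPS libraries 1 to 5, against 21.5, 99.3, 6.56, 361 and 1381 CPM in APP vehicle libraries 1 to 5. Vehicle library 5 lay above 4 of the 5 LPS libraries, while vehicle libraries 1 to 4 lay below all of them (log2 change 3.27 ± 0.60, adjusted p = 0.0322, called in 8 of 15). Cxcl5, a chemokine for the same receptor, was at 0 in vehicle libraries 2 and 3 and stood at 4.74 to 891 CPM in the LPS libraries (log2 change 3.72 ± 0.74, adjusted p = 0.0463, called in 5 of 15).

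The first 250 bases before the start of Cxcl1, Cxcl2 and Il6 are shown because these are the genes with the largest rise whose windows hold a kappa B motif, the sequence bound by NF-kB. They come from RefSeq on build GRCm38.p6 and lie on the plus strand at chr5:90890995-90891244, chr5:90903649-90903898 and chr5:30012864-30013113. Capitals mark the kappa B match. In Cxcl1 and Cxcl2 a match on each strand overlaps, which gives 1 run of capitals.
Cxcl1: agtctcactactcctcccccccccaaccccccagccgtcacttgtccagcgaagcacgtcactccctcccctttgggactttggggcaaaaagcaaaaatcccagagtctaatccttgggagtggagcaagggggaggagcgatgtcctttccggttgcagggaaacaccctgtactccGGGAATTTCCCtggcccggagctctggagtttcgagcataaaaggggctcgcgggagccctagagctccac
Cxcl2: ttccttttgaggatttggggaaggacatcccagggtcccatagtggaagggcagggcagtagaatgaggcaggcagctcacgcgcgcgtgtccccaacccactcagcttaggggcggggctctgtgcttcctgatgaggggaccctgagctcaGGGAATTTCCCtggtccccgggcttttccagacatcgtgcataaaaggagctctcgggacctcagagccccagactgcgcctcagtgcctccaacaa
Il6: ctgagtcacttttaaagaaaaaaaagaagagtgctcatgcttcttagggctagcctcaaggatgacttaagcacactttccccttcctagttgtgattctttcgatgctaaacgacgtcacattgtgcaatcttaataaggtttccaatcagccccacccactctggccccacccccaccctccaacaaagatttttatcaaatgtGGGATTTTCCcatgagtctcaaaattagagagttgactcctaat
Searched on both strands, the kappa B motif was present in 7 of the 24 genes that rose and had a window (29.2%: Cxcl1, Cxcl2, Ier3, Il6, Lacc1, Nfkbia and Sod2), in 4 of 21 that fell (19%) and in 921 of 10848 windows of all genes tested (8.49%). The AP-1 motif TGANTCA was in 4 of 24 windows of genes that rose (16.7%), 6 of 21 of genes that fell (28.6%) and 4.73% of all windows. The interferon response element core was in 1 of 24 (4.17%), 0 of 21 and 2.78% of all windows. Some windows hold more than 1 of these motifs. These matches describe letters in the window and show no binding.

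Il6, for interleukin 6, stood at 271, 124, 85.8, 181 and 722 CPM in APP LPS libraries 1 to 5, against 42.7, 20.4, 4.11, 88.7 and 329 CPM in APP vehicle libraries 1 to 5. Pair 5 was the highest in both groups, and its vehicle library lay above 4 LPS libraries (log2 change 2.31 ± 0.37, adjusted p = 0.0166, called in 9 of 15). Tnf, for tumour necrosis factor, stood at 77.3, 128, 111, 38.97 and 58.4 CPM in APP LPS libraries 1 to 5, against 28.2, 19.3, 51.3, 26.6 and 22.2 CPM in APP vehicle libraries 1 to 5. Only vehicle library 3 lay above an LPS library, that of pair 4 (log2 change 1.44 ± 0.28, adjusted p = 0.0459, called in 8 of 15).

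The CC chemokines Ccl2, which attracts monocytes, and Ccl3, which attracts monocytes and lymphocytes, rose as well. Ccl3 stood at 944, 588, 935, 361 and 359 CPM in APP LPS libraries 1 to 5, against 187, 139.8, 352, 227 and 199 CPM in APP vehicle libraries 1 to 5. Its groups did not overlap, by a narrow margin between LPS library 5 and vehicle library 3 (log2 change 1.47 ± 0.21, adjusted p = 0.00871, called in 9 of 15). Ccl2 stood at 984, 957, 743, 803 and 2069 CPM in APP LPS libraries 1 to 5, against 202, 209.9, 196, 423 and 1414 CPM in APP vehicle libraries 1 to 5. Pair 5 was again the highest in both groups (log2 change 1.58 ± 0.23, adjusted p = 0.00783, called in 9 of 15). Ereg, which encodes the growth factor epiregulin, rose (log2 change 1.46 ± 0.24, adjusted p = 0.0181, called in 8 of 15).

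The summed level of the cytokine list was 8513 to 12516 CPM in the APP LPS libraries and 2014 to 8943 CPM in the APP vehicle libraries. The sum was 5.46, 3.84, 2.49, 1.31 and 1.40 times the vehicle level with LPS in pairs 1 to 5. The LPS sums lay close together, and the vehicle sums of pairs 4 and 5 were 8542 and 8943 CPM while those of pairs 1 to 3 were 2014 to 3418 CPM. Pairs 4 and 5 also carry higher library numbers in the labels (51, 52, 59 and 60) than pairs 1 to 3 (3 to 12), and the labels do not say what the number marks.

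Of the 24 tested genes of the LPS receptor complex, its adaptors and kinases, Cd14 alone was called, and 9 had a log2 change above 0 (list median -0.16). The median of all genes was -0.11, with 41.4% above 0, and paired DESeq2 called 1 gene of this list that rose and 1 that fell. Cd14, the coreceptor that hands LPS to TLR4, stood at 130.2, 214, 229.8, 95.6 and 44.3 CPM in APP LPS libraries 1 to 5, against 61.1, 128, 90.3, 70.5 and 24.3 CPM in APP vehicle libraries 1 to 5. It was higher in 5 of 5 pairs although the groups overlap widely, with pair 5 low in both (log2 change 0.90 ± 0.17, adjusted p = 0.0340, called in 8 of 15). Tlr4 averaged 25.4 ± 9.43 CPM in APP LPS and 30.5 ± 13.997 CPM in APP vehicle libraries (SD, n = 5 each) and did not pass the test (log2 change -0.22 ± 0.30, adjusted p = 0.985). Ly96, for MD-2, averaged 60.9 ± 23.4 CPM in APP LPS and 44.7 ± 17.1 CPM in APP vehicle libraries (SD, n = 5 each) and did not pass it either (log2 change 0.46 ± 0.22, adjusted p = 0.807).

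Of 11 NF-kB subunits and inhibitors, 2 rose, 0 fell and 9 were above 0, with a median of 0.51. Nfkbia encodes I kappa B alpha, which holds NF-kB in the cytoplasm and is itself an NF-kB target. It stood at 632, 729, 1127, 1438 and 955 CPM in APP LPS libraries 1 to 5, against 287, 302, 505, 846 and 768 CPM in APP vehicle libraries 1 to 5. The vehicle libraries of pairs 4 and 5 lay above LPS libraries 1 and 2, and within each pair LPS was higher (log2 change 0.93 ± 0.14, adjusted p = 0.0111, called in 10 of 15). Nfkbiz, which encodes the nuclear cofactor I kappa B zeta, averaged 137 ± 56.5 CPM in APP LPS and 64.9 ± 24.5 CPM in APP vehicle libraries (SD, n = 5 each), with no overlap between groups (log2 change 1.09 ± 0.21, adjusted p = 0.0439, called in 7 of 15).

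In the list of 24 feedback inhibitors of LPS and cytokine signalling, edgeR called 0 genes, with 9 at an unadjusted p under 0.05, paired DESeq2 called 5 that rose and 2 that fell, and 18 were above 0 (median 0.47). Socs3, an inhibitor of JAK signalling, averaged 83.6 ± 31.3 CPM in APP LPS and 34.6 ± 18.6 CPM in APP vehicle libraries (SD, n = 5 each; log2 change 1.33 ± 0.30, adjusted p = 0.0817). Rgs1, a brake on G protein signalling, averaged 30.5 ± 14.4 CPM in APP LPS and 81.7 ± 37.6 CPM in APP vehicle libraries (SD, n = 5 each; log2 change -1.30 ± 0.29, adjusted p = 0.0817). Without pair 5, edgeR called 5 genes of this list as raised and 1 as lowered, and both Socs3 and Rgs1 passed. Jak2, the kinase of several cytokine receptors and no member of that list, rose (log2 change 1.04 ± 0.20, adjusted p = 0.0450, called in 7 of 15).

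The effector list, with enzymes, transporters and acute-phase genes that LPS is known to induce in macrophages, had 10 of 51 members that rose, 0 that fell and 45 above 0 (median 0.75). Paired DESeq2 called 22 of them that rose and 1 that fell. Acod1 makes itaconate from an intermediate of the citric acid cycle. It stood at 328, 343, 378, 356 and 209.7 CPM in APP LPS libraries 1 to 5, against 30.2, 14.2, 23.9, 147 and 127 CPM in APP vehicle libraries 1 to 5. Its groups did not overlap, and LPS libraries 1 to 4 lay close together with library 5 below them (log2 change 2.83 ± 0.49, adjusted p = 0.0233, called in 8 of 15). Slc7a2, a transporter that brings arginine into the cell, stood at 319.8, 226, 122, 491 and 835 CPM in APP LPS libraries 1 to 5, against 108, 94.4, 44.3, 180.5 and 470.0 CPM in APP vehicle libraries 1 to 5. Levels were highest in pair 5 and lowest in pair 3 in both groups, which therefore overlap, and the rise within pairs was even enough to be called in 13 of 15 fits (log2 change 1.31 ± 0.14, adjusted p = 0.000752).

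Prostaglandin synthesis was represented by Ptgs2, which encodes cyclooxygenase 2, and by Ptges, which makes prostaglandin E2 from its product. Ptges stood at 119, 198, 119.6, 287 and 333 CPM in APP LPS libraries 1 to 5, against 59.1, 95.6, 46.9, 145 and 219 CPM in APP vehicle libraries 1 to 5. Vehicle library 5 lay above LPS libraries 1, 2 and 3 (log2 change 1.00 ± 0.14, adjusted p = 0.00783, called in 11 of 15). Ptgs2 stood at 460.4, 359, 453, 589.6 and 461 CPM in APP LPS libraries 1 to 5, against 174, 145, 238, 397 and 326 CPM in APP vehicle libraries 1 to 5. Only vehicle library 4 lay above an LPS library, that of pair 2 (log2 change 0.94 ± 0.15, adjusted p = 0.0142, called in 8 of 15).

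S100a8, which encodes a subunit of the alarmin calprotectin, stood at 121, 134, 186, 227 and 55.1 CPM in APP LPS libraries 1 to 5, against 39.5, 47.4, 46.7, 114 and 15.6 CPM in APP vehicle libraries 1 to 5. LPS library 5 was below vehicle library 4, and the other 4 LPS libraries lay above all vehicle libraries (log2 change 1.58 ± 0.18, adjusted p = 0.00164, called in 13 of 15). Saa3, for an acute-phase serum amyloid A, stood at 2443, 2079.8, 3949, 5267 and 3099 CPM in APP LPS libraries 1 to 5, against 129.9, 232, 1864, 2219.7 and 1682 CPM in APP vehicle libraries 1 to 5. Its rise was largest in pairs 1 and 2, whose vehicle levels were lowest (log2 change 2.07 ± 0.41, adjusted p = 0.0445, called in 7 of 15). Lcn2, for the iron-siderophore binder lipocalin 2, averaged 191 ± 116 CPM in APP LPS and 101 ± 104 CPM in APP vehicle libraries (SD, n = 5 each; log2 change 1.25 ± 0.21, adjusted p = 0.0214, called in 8 of 15). Clec4e, for the pattern receptor Mincle, averaged 404 ± 117 CPM in APP LPS and 172 ± 141 CPM in APP vehicle libraries (SD, n = 5 each; log2 change 1.73 ± 0.34, adjusted p = 0.0445, called in 8 of 15). S100a8 and Lcn2 also stand in the marker list of monocytes and neutrophils, where they were 2 of 10 tested genes to rise (median 0.16, or -0.016 without pair 2). That list summed to 599 to 2438 CPM in the APP LPS libraries and 463 to 1799 CPM in the APP vehicle libraries, most of it from Fn1, which averaged 814 CPM in APP LPS and 849.8 CPM in APP vehicle libraries. Cxcr2 averaged 99.4 CPM in APP LPS and 53.8 CPM in APP vehicle libraries, and Vcan averaged 89.8 CPM in APP LPS and 64.03 CPM in APP vehicle libraries. Ly6c2 and Mpo averaged at most 0.254 CPM in either group, and Ccr2 averaged 2.96 CPM in APP LPS and 3.20 CPM in APP vehicle libraries. The part of such cells in the rise of S100a8 and Lcn2 was not tested.

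Antioxidant genes were raised in part. In the list of thioredoxin, glutathione, Nrf2 and metallothionein genes, 3 of 32 rose and 0 fell, with a median of 0.07. Sod2, the mitochondrial superoxide dismutase, stood at 2114, 3638, 2732, 3390.2 and 1886 CPM in APP LPS libraries 1 to 5, against 625, 1106, 863, 2150.0 and 1646 CPM in APP vehicle libraries 1 to 5. Vehicle library 4 lay above LPS libraries 1 and 5, and LPS was higher within each pair (log2 change 1.20 ± 0.21, adjusted p = 0.0214, called in 8 of 15). Slc7a11, the cystine importer that feeds glutathione synthesis, averaged 606 ± 267 CPM in APP LPS and 369 ± 258 CPM in APP vehicle libraries (SD, n = 5 each; log2 change 0.88 ± 0.17, adjusted p = 0.0431, called in 6 of 15). Mt2, a metallothionein that binds zinc and copper, rose by the smallest log2 change of the 33 (log2 change 0.72 ± 0.14, adjusted p = 0.0397, called in 5 of 15). Abcc1, an exporter of glutathione conjugates, rose outside that list (log2 change 0.84 ± 0.17, adjusted p = 0.0464, called in 6 of 15).

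The remaining genes that rose are named because they were called. Bcl2a1a, an inhibitor of apoptosis of the Bcl2 family, averaged 193 ± 99.7 CPM in APP LPS and 67.1 ± 53.7 CPM in APP vehicle libraries (SD, n = 5 each; log2 change 1.70 ± 0.34, adjusted p = 0.0459), and its near-identical paralogs make its count uncertain. Ier3, an immediate early gene with a role in cell survival and the only called member of the 24 immediate early genes (median 0.15), did not overlap between groups (log2 change 1.01 ± 0.16, adjusted p = 0.0166). Lacc1, which encodes a macrophage enzyme of purine metabolism, overlaps Ccdc122 on the other strand (log2 change 1.16 ± 0.21, adjusted p = 0.0315). Pdpn, for the membrane glycoprotein podoplanin, rose (log2 change 0.90 ± 0.15, adjusted p = 0.0207), and so did Rnd1, for a small GTPase (log2 change 1.04 ± 0.20, adjusted p = 0.0397). Milr1, for an inhibitory mast cell receptor, overlaps Polg2 on the other strand (log2 change 0.97 ± 0.19, adjusted p = 0.0423). Bbln completes the set (log2 change 1.06 ± 0.20, adjusted p = 0.0418). These 7 genes were called in 8 (Bcl2a1a, Pdpn and Milr1) or 7 (Ier3, Lacc1, Rnd1 and Bbln) of 15 fits.

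Interferon-stimulated genes divided the pairs. Of 49 tested members, 47 had a log2 change above 0 (list median 0.89), yet edgeR called 0, with 12 at an unadjusted p under 0.05, and paired DESeq2 called 3 that rose. The number of members higher with LPS was 44, 47, 41, 10 and 5 of 49 in pairs 1 to 5. Their summed level was 3.90, 3.12, 2.67, 0.899 and 0.617 times the vehicle level with LPS in pairs 1 to 5. Without pair 5, edgeR called 4 members as raised.

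Gbp2, an interferon-inducible GTPase, shows the division in part, since it was lower with LPS in pair 5 but higher in pair 4. It stood at 267, 225, 129, 96.8 and 195 CPM in APP LPS libraries 1 to 5, against 29.7, 22.1, 13.5, 44.8 and 260.4 CPM in APP vehicle libraries 1 to 5. Vehicle library 5 lay above 4 of the 5 LPS libraries, while vehicle libraries 1 to 4 lay below all of them (log2 change 2.17 ± 0.48, adjusted p = 0.0783). Slfn2, an interferon-inducible gene of lymphocytes and macrophages, averaged 469.6 ± 187 CPM in APP LPS and 213 ± 51.2 CPM in APP vehicle libraries (SD, n = 5 each; log2 change 1.06 ± 0.23, adjusted p = 0.0706) and was higher in 4 of 5 pairs. Genes of class I antigen presentation had a like pattern, with 14, 19, 17, 9 and 4 of 22 members higher with LPS in pairs 1 to 5 (list median 0.26). EdgeR called 0 of them, with 6 at an unadjusted p under 0.05, paired DESeq2 called 2 that rose, and the class I gene H2-Q4, whose family shares sequence, averaged 173 ± 45.9 CPM in APP LPS and 94.4 ± 82.95 CPM in APP vehicle libraries (SD, n = 5 each; log2 change 1.15 ± 0.24, adjusted p = 0.0600). Another class I gene, H2-T22, averaged 174 ± 49.8 CPM in APP LPS and 95.6 ± 58.7 CPM in APP vehicle libraries (SD, n = 5 each; log2 change 0.98 ± 0.25, adjusted p = 0.158).

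**Figure D2:**
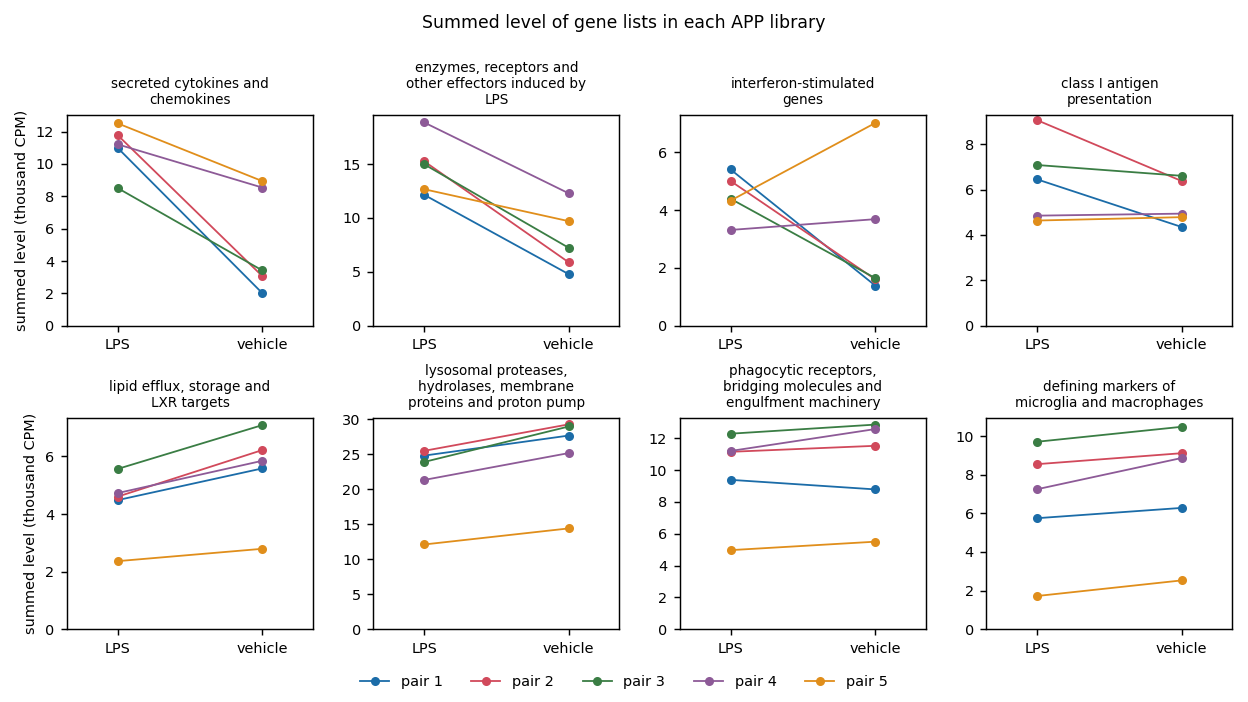
Summed CPM of 8 gene lists in APP LPS (left) and APP vehicle (right) libraries, with a line for each pair and an axis from 0. The cytokine and interferon lists converge at LPS and spread at vehicle, where pairs 4 and 5 are high. For interferon-stimulated genes vehicle library 5 lies far above vehicle library 4. Pair 5 is low for the microglial, lysosomal, lipid and phagocytic lists in both groups.

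Turning to the genes that fell, Igf1, which encodes insulin-like growth factor 1, stood at 333, 196, 283, 258 and 28.6 CPM in APP LPS libraries 1 to 5, against 752, 644, 791, 537 and 87.3 CPM in APP vehicle libraries 1 to 5. Vehicle libraries 1 to 4 lay above all LPS libraries, and pair 5 was low in both groups (log2 change -1.41 ± 0.13, adjusted p = 0.000263, called in 13 of 15). The summed microglia and macrophage markers were also lower with LPS in every pair, at 0.915, 0.938, 0.926, 0.817 and 0.680 times the vehicle level in pairs 1 to 5. Of those 18 markers, 1 rose (Cd14), 2 fell (C1qc among them), and the list median was -0.30. Their part in the falls below was not tested. In the same pairs the median gene of the 30 that fell was 2.02, 2.15, 2.06, 1.70 and 1.70 times lower with LPS, which only describes the genes chosen by the test.

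Mrc1, the macrophage mannose receptor that binds and internalises glycoproteins, stood at 124, 309.9, 96.5, 321 and 48.2 CPM in APP LPS libraries 1 to 5, against 383, 686, 169, 769.5 and 198 CPM in APP vehicle libraries 1 to 5. Pairs 2 and 4 were high in both groups, and within each pair LPS was lower (log2 change -1.37 ± 0.16, adjusted p = 0.00210, called in 13 of 15). It is also the only called gene among 12 markers of border-associated macrophages (median -0.21). Trem2, the microglial receptor for lipids and apoptotic cells that signals through Tyrobp, stood at 40.4, 87.2, 35.8, 59.9 and 11.6 CPM in APP LPS libraries 1 to 5, against 181, 220.2, 139.8, 133 and 18.6 CPM in APP vehicle libraries 1 to 5. Vehicle libraries 1 to 4 lay above all LPS libraries, and both libraries of pair 5 lay below every other library (log2 change -1.47 ± 0.22, adjusted p = 0.00964, called in 9 of 15). Of 58 phagocytic receptors, bridging molecules and engulfment genes, Mrc1 and Trem2 fell and 0 rose, with 21 above 0 and a median of -0.16. Paired DESeq2 called 1 that rose and 13 that fell. The list as a whole lay near all genes, whose median was -0.11 with 41.4% above 0.

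Of 34 genes of lipid efflux, storage and the LXR pathway, 4 fell, 0 rose and 8 were above 0, with a median of -0.60. Paired DESeq2 called 1 of them that rose and 9 that fell. Apoe, the lipoprotein that carries lipid out of glia and a risk gene for Alzheimer disease, stood at 206, 147, 173, 169 and 225 CPM in APP LPS libraries 1 to 5, against 412, 469, 400.3, 278 and 314 CPM in APP vehicle libraries 1 to 5. Its groups did not overlap, which held for 3 of the 30 genes that fell and for 0.333% of all genes with LPS lower (log2 change -1.02 ± 0.16, adjusted p = 0.0133, called in 8 of 15). Lpl, which encodes lipoprotein lipase, stood at 635, 453, 1356, 963 and 89.1 CPM in APP LPS libraries 1 to 5, against 995, 1146, 2057, 1587 and 188 CPM in APP vehicle libraries 1 to 5. It was highest in pair 3 and lowest in pair 5 in both groups, and lower with LPS within each pair (log2 change -0.88 ± 0.13, adjusted p = 0.00783, called in 12 of 15). Lipa, the lysosomal acid lipase, averaged 125 ± 67.3 CPM in APP LPS and 244 ± 98.7 CPM in APP vehicle libraries (SD, n = 5 each; log2 change -1.12 ± 0.17, adjusted p = 0.0113, called in 9 of 15). Nceh1, a cholesterol ester hydrolase, averaged 104 ± 52.5 CPM in APP LPS and 178 ± 94.7 CPM in APP vehicle libraries (SD, n = 5 each; log2 change -0.75 ± 0.13, adjusted p = 0.0273, called in 7 of 15).

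Of 65 lysosomal proteases, hydrolases, membrane proteins and pump subunits, 3 fell, 0 rose and 18 were above 0 (median -0.19). Ctsd, which encodes the protease cathepsin D, stood at 1914, 1766, 1096, 1415 and 599.8 CPM in APP LPS libraries 1 to 5, against 3357, 2805, 2470.0, 2019 and 939 CPM in APP vehicle libraries 1 to 5. Vehicle libraries 1 to 4 lay above all LPS libraries, and pair 5 was low in both (log2 change -0.76 ± 0.11, adjusted p = 0.00964, called in 11 of 15). Lipa, given above, is also in this list.

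**Figure D3:**
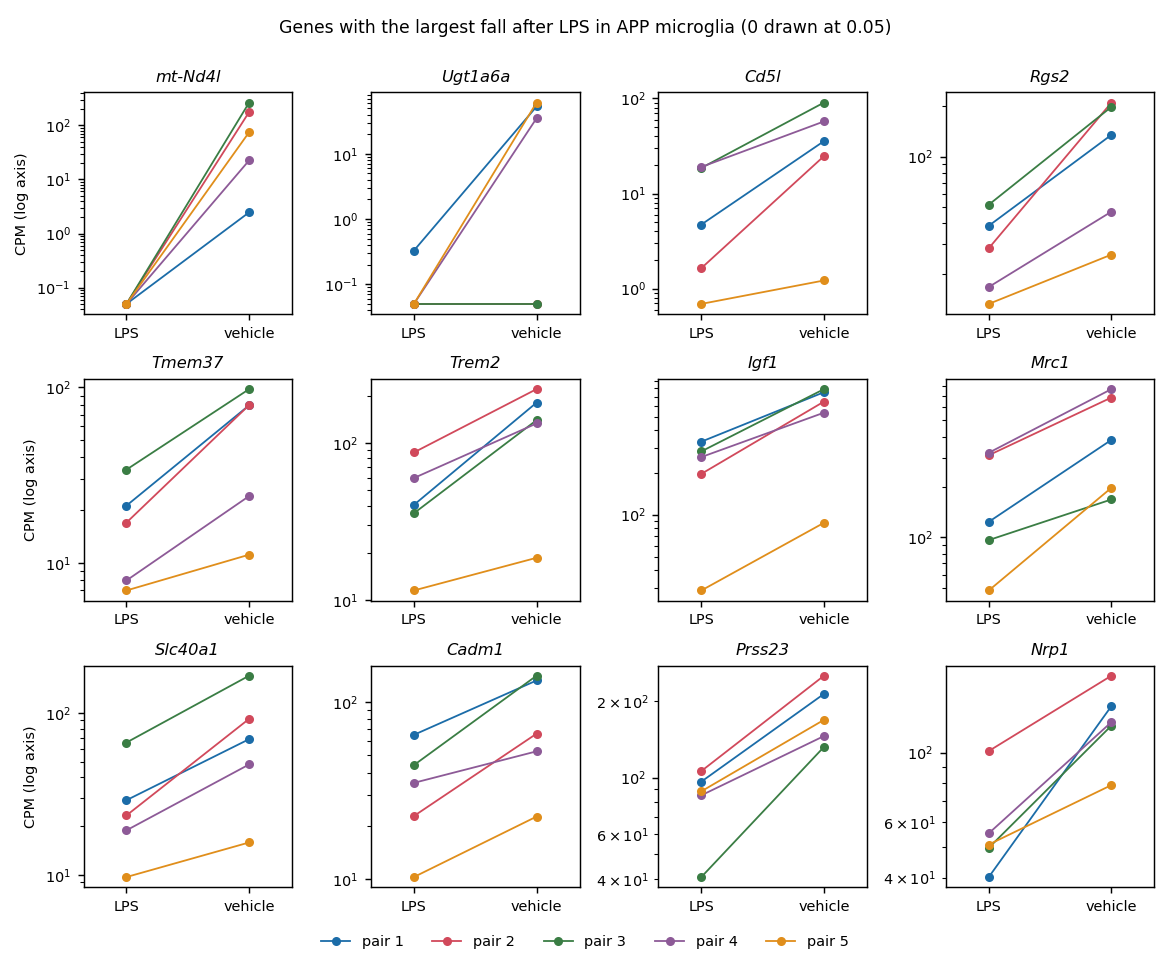
Level of the 12 genes with the largest called fall, in CPM on a log axis with 0 drawn at 0.05, in APP LPS libraries (left of each panel) and APP vehicle libraries (right), with a line for each pair. Pair 5 lies at or near the bottom for Igf1, Trem2, Cd5l and Slc40a1 in both groups, and mt-Nd4l is at 0 in all LPS libraries.

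In the list of disease-associated microglia genes, known from amyloid models in mice, 7 of 47 fell, 0 rose and 11 were above 0 (median -0.39). Besides Apoe, Trem2, Lpl, Ctsd and Igf1 these were Lgals3 and Cadm1. Other fits also called members that rose, since paired DESeq2 called 3 that rose and 15 that fell, and paired voom 2 and 12. Lgals3, for galectin 3, averaged 229 ± 79.04 CPM in APP LPS and 404 ± 159 CPM in APP vehicle libraries (SD, n = 5 each; log2 change -0.81 ± 0.14, adjusted p = 0.0236, called in 8 of 15). Cadm1, a cell adhesion molecule, averaged 35.5 ± 20.9 CPM in APP LPS and 82.8 ± 51.4 CPM in APP vehicle libraries (SD, n = 5 each; log2 change -1.19 ± 0.22, adjusted p = 0.0322, called in 8 of 15). Of 40 homeostatic microglia genes, 3 fell (Rgs2 and Tmem37 among them), 0 rose and 8 were above 0 (median -0.57).

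Rgs2, a brake on G protein signalling, stood at 38.6, 28.3, 51.6, 16.6 and 13.2 CPM in APP LPS libraries 1 to 5, against 135, 210.4, 198, 46.9 and 25.95 CPM in APP vehicle libraries 1 to 5. Pairs 1 to 3 had high vehicle levels and the largest falls, and pairs 4 and 5 were low in both groups (log2 change -1.82 ± 0.25, adjusted p = 0.00547, called in 11 of 15). Tmem37, for a membrane protein related to calcium channel subunits, averaged 17.5 ± 11.1 CPM in APP LPS and 58.4 ± 38.2 CPM in APP vehicle libraries (SD, n = 5 each; log2 change -1.59 ± 0.29, adjusted p = 0.0322, called in 7 of 15). Cd5l, a secreted macrophage protein, stood at 4.72, 1.64, 18.6, 19.03 and 0.691 CPM in APP LPS libraries 1 to 5, against 35.6, 24.8, 90.6, 57.4 and 1.22 CPM in APP vehicle libraries 1 to 5. Pair 5 was near 0 in both groups, and its vehicle library lay below LPS libraries 1 to 4 (log2 change -2.33 ± 0.47, adjusted p = 0.0487, called in 7 of 15). Prss23, a serine protease, stood at 96.5, 106, 40.7, 85.3 and 88.4 CPM in APP LPS libraries 1 to 5, against 213, 252, 132, 146 and 169 CPM in APP vehicle libraries 1 to 5. Its groups did not overlap (log2 change -1.16 ± 0.16, adjusted p = 0.00728, called in 11 of 15).

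Slc40a1, which encodes ferroportin, the iron exporter, averaged 29.3 ± 21.5 CPM in APP LPS and 78.9 ± 57.98 CPM in APP vehicle libraries (SD, n = 5 each; log2 change -1.33 ± 0.23, adjusted p = 0.0214, called in 7 of 15). Among 25 complement genes C1qc, a chain of the initiator C1q, fell and 0 rose, with 10 above 0 and a median of -0.12. The median of all genes was -0.11, with 41.4% above 0, and paired DESeq2 called 1 complement gene that rose and 4 that fell. C1qc averaged 429 ± 215 CPM in APP LPS and 648 ± 297 CPM in APP vehicle libraries (SD, n = 5 each; log2 change -0.66 ± 0.12, adjusted p = 0.0317, called in 7 of 15). Of 32 Alzheimer risk genes of myeloid cells Apoe and Trem2 fell and 0 rose (median -0.26), while paired voom called 1 that rose and 3 that fell. Among 23 growth factors of macrophages Ereg rose and Igf1 fell (median -0.10, or 0.012 without pair 3), while paired DESeq2 called 3 that rose and 1 that fell.

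Nrp1, a coreceptor for semaphorins and VEGF, averaged 59.5 ± 23.98 CPM in APP LPS and 129 ± 35.1 CPM in APP vehicle libraries (SD, n = 5 each; log2 change -1.14 ± 0.19, adjusted p = 0.0207, called in 7 of 15). The other genes that fell are named because they were called. Wwp1 encodes a ubiquitin ligase (log2 change -0.78 ± 0.13, adjusted p = 0.0166), Cyp26b1 an enzyme that degrades retinoic acid (log2 change -0.99 ± 0.16, adjusted p = 0.0181), Aldh2 the mitochondrial aldehyde dehydrogenase (log2 change -0.63 ± 0.12, adjusted p = 0.0397) and Ap1s2 a subunit of a clathrin adaptor (log2 change -0.85 ± 0.15, adjusted p = 0.0299). Emp1 encodes an epithelial membrane protein (log2 change -0.59 ± 0.12, adjusted p = 0.0492), Ptms parathymosin (log2 change -0.78 ± 0.15, adjusted p = 0.0423) and Fcrl2 an Fc receptor-like protein (log2 change -1.08 ± 0.22, adjusted p = 0.0464). Ctla2a, an inhibitor of cysteine proteases with close relatives, fell (log2 change -0.69 ± 0.13, adjusted p = 0.0431), as did Syn3 (log2 change -0.60 ± 0.12, adjusted p = 0.0463), whose reads cannot be told apart from those of Timp3 on the other strand without knowledge of the strand setting. These genes were called in 4 (Emp1) to 8 (Wwp1 and Cyp26b1) of 15 fits.

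For 3 further genes that fell the count itself is uncertain. Ccdc152 overlaps Selenop, for the selenium carrier, on the other strand, and the strand setting of the count is not given in the sources used here. It stood at 189, 229, 272, 283 and 120.4 CPM in APP LPS libraries 1 to 5, against 331, 488, 484, 574 and 278 CPM in APP vehicle libraries 1 to 5. Vehicle library 5 was below LPS library 4, and the other vehicle libraries lay above all LPS libraries (log2 change -0.99 ± 0.12, adjusted p = 0.00210, called in 13 of 15). Transcript mt-Nd4l, for a complex I subunit encoded in the mitochondrion, overlaps mt-Nd4 on the same strand. It stood at 0, 0, 0, 0 and 0 CPM in APP LPS libraries 1 to 5, against 2.47, 177, 264, 22.6 and 74.9 CPM in APP vehicle libraries 1 to 5. With 3 counts as the floor in each LPS library, its mean vehicle level was 650 times the mean floor (adjusted p = 4.21e-06, called in 12 of 15). That ratio holds for the group means and not for each pair, since vehicle library 1 stood at only 2.47 CPM. None of the other 12 mitochondrial transcripts tested was called, and the list median was -0.05, or 0.0051 without pair 1 and 0.0086 without pair 2. In WT cells it stood at 0, 86.1, 67.9, 0 and 0 CPM in LPS libraries 1 to 5, against 0, 0, 0 and 113 CPM in vehicle libraries 1 to 4. Ugt1a6a shares its last exons with the other genes of the Ugt1a locus, and stood at 0.328, 0, 0, 0 and 0 CPM in APP LPS libraries 1 to 5, against 53.2, 0, 0, 35.1 and 61.1 CPM in APP vehicle libraries 1 to 5. It was at 0 in vehicle libraries 2 and 3, so its fall rests on pairs 1, 4 and 5 (adjusted p = 0.0133, called in 6 of 15).

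**Figure D4:**
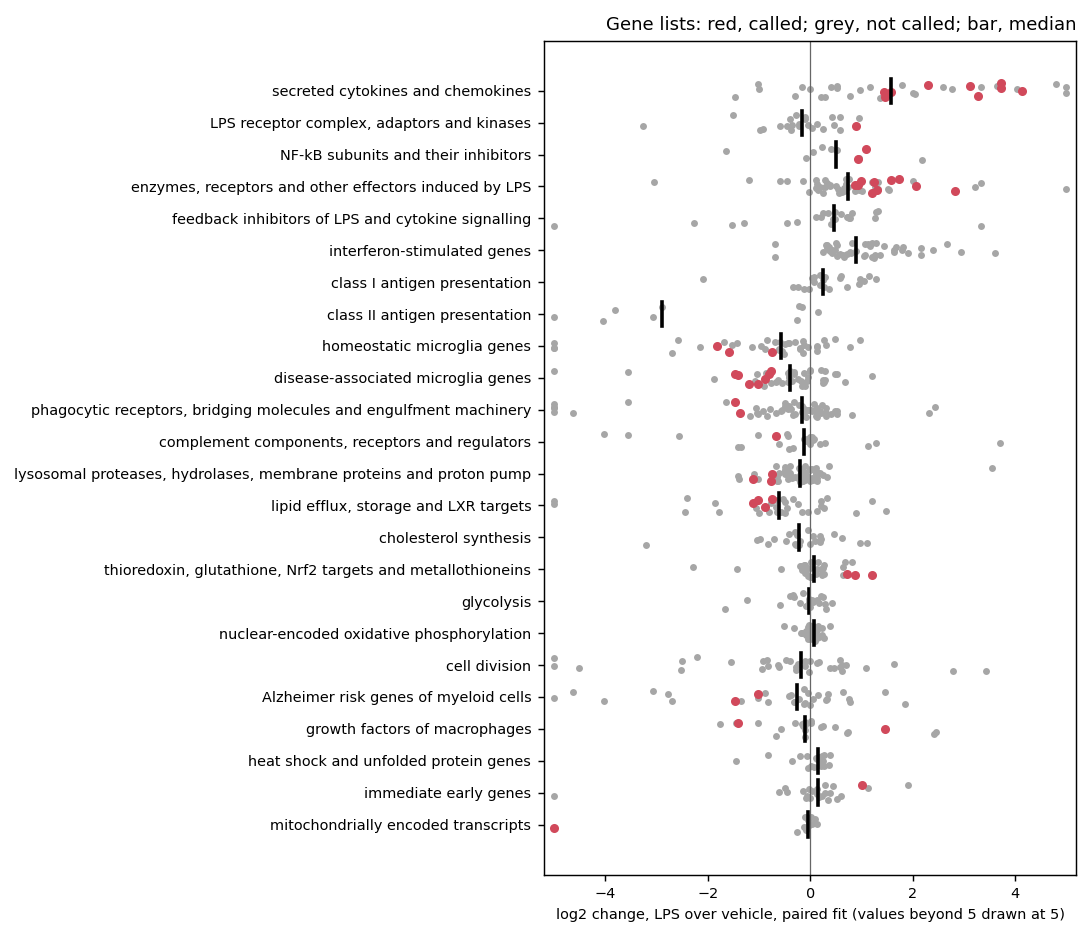
Log2 change, APP LPS over APP vehicle in the paired fit, of the tested members of 24 gene lists, with called genes in red, the others in grey and the list median as a bar; values beyond 5 in either direction are drawn at 5. Called genes lie to the right in the cytokine, effector, NF-kB and antioxidant lists and to the left in the homeostatic, disease-associated, lipid and lysosomal lists, while the interferon list lies to the right with none called.

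Several lists had no called gene in edgeR. Of 9 class II genes 1 was above 0, with a median of -2.89, or -1.19 with the gene at 0 in 1 group set at its bound. Members near 0 carry this median, since the 3 with a mean of at least 10 CPM had a median of -0.22. The list summed to 571 to 2322 CPM in the APP LPS libraries and 774 to 2634 CPM in the APP vehicle libraries, most of it from the protease gene Ctss, while H2-Ab1, a class II chain, averaged 0.900 CPM in APP LPS and 3.44 CPM in APP vehicle libraries and H2-DMa, a peptide loader, averaged 1.997 ± 2.69 CPM in APP LPS and 6.64 ± 3.75 CPM in APP vehicle libraries (SD, n = 5 each). At an unadjusted p under 0.05 there was 1 class II gene, and paired DESeq2 called 2 that fell. Cholesterol synthesis had a median of -0.21 over 24 genes, glycolysis -0.02 over 21, nuclear-encoded oxidative phosphorylation 0.07 over 36 and cell division -0.17 over 36. The signs of 3 of these depended on the fit, since with no replicate block the medians were 0.050 for cholesterol synthesis, 0.0037 for glycolysis and 0.087 for cell division, and with paired voom 0.034, 0.014 and 0.13. At an unadjusted p under 0.05 these had 1, 3, 1 and 1 genes, and paired DESeq2 called 1, 1, 0 and 1, all lower with LPS. Heat shock and unfolded protein genes had a median of 0.15 over 20, with 3 at an unadjusted p under 0.05 and 0 called by DESeq2.

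Among markers of other cells, edgeR called 0 of 18 fibroblast and pericyte genes, 13 endothelial, 13 astrocyte, 12 oligodendrocyte, 8 neuronal and 4 lymphocyte genes. Their medians were -0.41, -0.69, -0.40, -0.29, -0.51 and 0.54. Leaving out 1 pair turned the oligodendrocyte median to 0.067 (without pair 1) or moved it to -1.34 (without pair 3), and turned the lymphocyte median to -0.082 (without pair 5). It moved the neuronal median to -0.16 (without pair 1), the endothelial median to -1.13 and the astrocyte median to -0.74 (both without pair 5). At an unadjusted p under 0.05 there were 5, 0, 2, 0, 1 and 0 genes, and paired DESeq2 called 3 fibroblast and pericyte genes (1 raised, 2 lowered), 1 endothelial, 1 astrocyte and 0 of the others. Acta2, smooth muscle actin, averaged 106 ± 39.9 CPM in APP LPS and 207 ± 107 CPM in APP vehicle libraries (SD, n = 5 each; log2 change -0.86 ± 0.18, adjusted p = 0.0518) and Tagln, another contractile gene, averaged 203 ± 95.9 CPM in APP LPS and 293 ± 133 CPM in APP vehicle libraries (SD, n = 5 each; log2 change -0.56 ± 0.12, adjusted p = 0.0706); both were lower with LPS in 5 of 5 pairs. Summed astrocyte markers were 281 to 611 CPM in the APP LPS libraries and 304 to 756 CPM in the APP vehicle libraries, and those of lymphocytes 0.164 to 10.98 CPM in the APP LPS libraries and 0.472 to 6.51 CPM in the APP vehicle libraries. Endothelial markers summed to 419.7 to 765 CPM in the APP LPS libraries and 399.6 to 769 CPM in the APP vehicle libraries, oligodendrocyte markers to 52.4 to 256 CPM in the APP LPS libraries and 67.8 to 282 CPM in the APP vehicle libraries and neuronal markers to 63.5 to 219.8 CPM in the APP LPS libraries and 81.3 to 301 CPM in the APP vehicle libraries. The part of these cells in the results was not tested.

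Whether the response differed between APP and WT cells was asked with the genotype by LPS interaction in a fit over all 19 libraries by group. EdgeR called 0 genes, with 385 at an unadjusted p under 0.05 (2.73% of genes), and DESeq2 called 98. In simulated data the edgeR interaction test recovered 1.49% of 67 genes changed 2-fold, 17.9% of 67 changed 4-fold and 36.4% of 66 changed 8-fold. It missed most changes of each size, so 0 calls say little about how alike the genotypes were. In the real edgeR fit the 5 smallest p belonged to Ccdc57, Rai2, Kcnh7, Dnaaf1 and Ace (each adjusted p = 1.000), whose APP means were at most 3.47 CPM in either treatment. In that fit WT cells had the same direction as APP cells for 33 of the 33 genes that rose and 29 of the 30 that fell, the exception being mt-Nd4l. The median log2 change of the genes that rose was 1.11 in APP and 1.14 in WT, and that of the genes that fell was -0.97 in APP and -0.66 in WT. The 63 genes were chosen on the APP libraries, so these medians are a description and no test.

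The interaction of Il1b was 0.12 ± 0.87 on the log2 scale (SE), and that of Igf1 was -0.36 ± 0.86, both with an adjusted p of 1.00. The interaction of Trem2 was -0.71 ± 0.80 and that of Apoe -0.01 ± 0.35. This fit takes no account of the pairs. With pairs of consecutive library numbers as a block, edgeR again called 0 genes, with 277 at an unadjusted p under 0.05, and the errors were smaller: the interaction was 0.20 ± 0.63 for Il1b, -0.35 ± 0.25 for Igf1, -0.34 ± 0.31 for Trem2 and -0.22 ± 0.23 for Apoe. A p that misses the threshold does not show that the genotypes responded alike. In the fit by group, at an unadjusted p under 0.05, the interaction held 0 of the 33 genes that rose and 2 of the 30 that fell, mt-Nd4l and Ugt1a6a, both of uncertain counting. In the edgeR fit with pairs, Slc7a2 (-0.89 ± 0.27, unadjusted p = 0.0046) and Bbln (0.68 ± 0.29, unadjusted p = 0.028), which rose, were also under 0.05. So was Cd5l (-1.36 ± 0.62, unadjusted p = 0.040), which fell, beside mt-Nd4l and Ugt1a6a. None of these passed after adjustment.

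**Figure D5:**
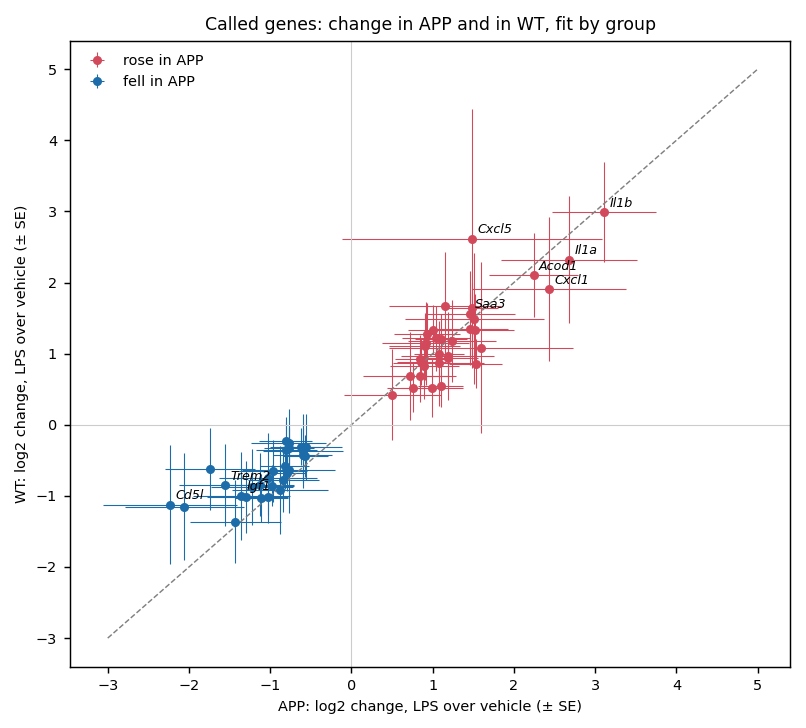
Log2 change of LPS over vehicle in APP (horizontal) and WT (vertical) microglia from the fit by group, for 61 of the 63 called genes, with bars of 1 SE; mt-Nd4l and Ugt1a6a are left out because they are at 0 in many libraries. The bars of most genes cross the dashed line of equal change. Among all 63 called genes, the change was smaller in WT for 21 of the 33 that rose and 29 of the 30 that fell. The genes were chosen on the APP libraries, so these counts are a description and no test.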

How the data were processed

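Only RNA whose integrity number exceeded 8.5, per the labels' protocols, entered QuantSeq 3′ libraries with molecular identifiers and ERCC spike-ins. The submitters' processing notes name FastQC, Trimmomatic, kallisto and DESeq2, with no versions. Not given in the sources used here were the genome build, annotation, strand setting and identifier handling. The authors deposited estimated counts for each gene, which came from kallisto per the submitters' processing notes. They are whole numbers, so rounding changed 0 of them. The smallest total of a gene was 10, and 0 rows were ERCC transcripts.

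CPM values were scaled by the trimmed mean of M values. The test was edgeR 4.0.16's quasi-likelihood F test (limma 3.58.1, R 4.3.3) on the 10 APP libraries with the replicate number as a block, on 14113 genes that filterByExpr kept over all 19 libraries (2828 left out), with Benjamini-Hochberg adjustment over all of them and a threshold of 0.05. Log2 changes are LPS over vehicle, with SE from the F statistic, and the ± after a log2 change is that SE. The interaction used all 19 libraries by group. A count of 0 allows up to 3 counts, 0.109 to 0.249 CPM in these libraries, for counting error only.

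Each LPS library correlated with the vehicle library of its own number (r 0.150 to 0.395 over 12808 genes, threshold 0.1), and other pairings gave -0.196 to 0.160. All 5 LPS libraries and 4 of 5 vehicle libraries were closest to their own number, and library numbers are consecutive within a pair. Ddx3y passed 100 counts in both libraries of 2 pairs and had at most 1 count in the other 3. No libraries were copies (chi-square per degree of freedom at least 135 over 20 comparisons).

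Genes were named by rule: called genes with at least 10 CPM, up to 12 in each direction by size, up to 4 called members of each list or else 2 by p, App, Tlr4, Cd14 and Ly96, and the 5 smallest interaction p. Of members named only for their p in lists with 0 calls, some appear by count alone. The remaining called genes were added after their values were seen, except 1 that is not reported here. Members and lists were chosen with earlier results of these data known. In simulated data the paired test missed most of the smaller changes and many of the larger ones. It recovered 23.9% of 67 genes changed 2-fold, 44.8% of 67 changed 4-fold and 59.1% of 66 changed 8-fold. It gave some changed genes the wrong sign, and it called 28 unchanged genes, more than its threshold allows. Motifs were searched in RefSeq windows of 250 bases, present for 24 of 33 genes that rose and 21 of 30 that fell. DESeq2 1.42.0, voom, other scalings, filters and left-out pairs were alternatives.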

Additional observations from a re-analysis of the deposited data

Results flagged for a closer look

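In 11 of 132 groups of 5 libraries examined, 1 library stood far from the other 4, with a gap above the share of the range that Dixon's test allows for 5 values (0.71). Dixon's test flags about 1 in 20 groups by chance where groups are independent and values follow a normal distribution. Here the groups share the same libraries and the values are CPM, so that rate is no measure for the 11. Of the 11 values, which fall in 4 libraries, 9 are of pair 5 (5 in its LPS and 4 in its vehicle library), and this pair also had the lowest sums of microglia and macrophage markers.

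In LPS library 5, Igf1 was low at 28.6 CPM, Acod1 at 209.7 CPM, Lgals3 at 98.7 CPM and C1qc at 90.0 CPM, and Ccl2 was high at 2069 CPM. In vehicle library 5, Igf1 was low at 87.3 CPM, Trem2 at 18.6 CPM, Wwp1 at 154.9 CPM and C1qc at 181 CPM. Prss23 was low in LPS library 3 at 40.7 CPM. Ugt1a6a stood at 0.328 CPM in LPS library 1 and at 0 in the other LPS libraries.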

How the results depend on the processing

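With no replicate block the test called 0 genes that rose and 0 that fell, in the 10 APP libraries and in all 19, so every call rests on the paired design. Paired over all 19 libraries it called 42 and 41, with RLE scaling 41 and 29 and with library totals alone 34 and 34. A filter over the APP libraries gave 5 that rose and 8 that fell on 12308 genes, a mean of at least 10 CPM gave 6 and 9 on 8256 genes, and no filter gave 63 and 43. Paired DESeq2 gave 229 and 384, and paired voom 53 and 51. Leaving out 1 pair gave 2 to 100 genes that rose and 5 to 41 that fell, the lowest without pair 2 and the highest without pair 5. Of the 63 genes, DESeq2 called 62, library totals and no filter 63 each, and the filter over the APP libraries 13. The cause of these shifts was not tested.

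The interaction stayed at 0 in all edgeR fits, including the one without libraries 57 to 60 and those that left out 1 library (0 to 0), and DESeq2 gave 98. Among the named genes the only reversed direction was that of the lymphocyte marker Cd3d, near 0 in level, whose log2 change was -0.084 without pair 4 and up to 2.72 when another pair was left out. Cd8a had no counts without pair 2 and no value there. Depth limits genes of a few CPM, such as H2-Ab1.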
